A study of Mus musculus with 2 samples.

Results

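The 3′ ends of protein-coding genes that lie more than 5 kb from the 5′ end of every gene, their own included, were examined for histone H3 trimethylated at lysine 4 (H3K4me3). Chromatin immunoprecipitation and sequencing (ChIP-seq) was done in E14TG2a.4, an established male mouse embryonic stem cell line of strain 129/Ola from embryos of 3.5 days, with 2 biological replicates in 1 group and no treatment named in the labels. A gene's 3′ end was taken from the RefSeq gene table of mm10, with the strand that GENCODE vM1 gives the like-named gene on that chromosome. By that rule 11918 ends were far ends. Of these, 36 were left out because their strand went against the mm10 promoter table or because they lay in, or beside, a block of chromosome 10 (3119841 to 7212237) in which gene order and strand are reversed between the builds, so that the supposed 3′ end was a start. The 11882 far 3′ ends that remained, in 11018 loci when ends within 2 kb of each other were joined, were analysed out of 20527 protein-coding 3′ ends. An end was called marked when a peak of the authors' replicated list on mm10 overlapped the 1 kb on either side of it. The rule for members uses no measured value.

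H3K4me3 is written by the SET1 and MLL (COMPASS) methyltransferases and is known as the mark of gene starts, where it is strongest on CpG islands, whose unmethylated CpG is read by CXXC proteins of these complexes. RNA polymerase II is bound by SET1 complexes early in transcription, whereas the body and end of an active gene usually carry other marks, such as H3K36me3. A gene's 3′ end, where the transcript is cleaved and polyadenylated, is therefore not a usual place for H3K4me3. Some gene ends and last exons do hold CpG-rich DNA away from any annotated start, known as orphan CpG islands.

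The sequences below are shown because marked ends held more CpG than unmarked ends, with much overlap. Each of the first set is a stretch of 200 bases free of annotated exons within 1 kb of the 3′ end. At marked ends only stretches inside a peak of the authors' pooled mm9 list were searched, which was not asked of unmarked ends. The searched stretch with the most CpG is given, read from mm9 on the gene's strand with every CpG in capitals. Tbx2 (chr11:85655470-85655669, plus strand, 20 to 219 bases beyond the gene's end) held 26 CpG and Bad (chr19:7026598-7026797, plus strand) held 17. A vM1 transcript start lay 1131 bp from the 3′ end of Bad. Ntng2 (chr2:29050651-29050850, minus strand, inside the gene) held 11. Alk (chr17:72218312-72218511, minus strand, beyond the end) held 9. All 4 ends were marked. Rbfox3 (chr11:118350864-118351063, minus strand) was marked with 3 CpG. Alb (chr5:90905639-90905838, plus strand) and Cntnap2 (chr6:47251738-47251937, plus strand) were unmarked, with 4 and 2 CpG. The medians of the most CpG were taken over all members with an exon-free stretch, whether or not it lay in a peak. They were 6 CpG (quartiles 4 and 7) at 1158 marked ends and 4 (3 and 6) at 9372 unmarked ends.
Tbx2: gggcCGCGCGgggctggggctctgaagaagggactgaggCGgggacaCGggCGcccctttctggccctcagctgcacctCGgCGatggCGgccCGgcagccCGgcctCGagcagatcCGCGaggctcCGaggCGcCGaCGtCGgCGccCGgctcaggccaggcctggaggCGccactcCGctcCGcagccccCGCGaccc
Bad: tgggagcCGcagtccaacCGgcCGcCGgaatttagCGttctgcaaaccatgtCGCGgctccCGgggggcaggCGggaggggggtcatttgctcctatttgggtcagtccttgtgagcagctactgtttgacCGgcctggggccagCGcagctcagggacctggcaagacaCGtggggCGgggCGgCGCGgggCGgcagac
Ntng2: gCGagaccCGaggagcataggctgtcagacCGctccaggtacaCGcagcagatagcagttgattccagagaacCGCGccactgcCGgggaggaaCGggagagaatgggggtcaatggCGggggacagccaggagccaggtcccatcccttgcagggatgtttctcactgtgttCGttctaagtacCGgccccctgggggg
Alk: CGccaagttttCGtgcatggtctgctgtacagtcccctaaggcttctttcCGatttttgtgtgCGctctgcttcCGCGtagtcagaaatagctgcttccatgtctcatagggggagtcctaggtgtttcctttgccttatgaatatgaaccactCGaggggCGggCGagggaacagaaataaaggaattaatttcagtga
Rbfox3: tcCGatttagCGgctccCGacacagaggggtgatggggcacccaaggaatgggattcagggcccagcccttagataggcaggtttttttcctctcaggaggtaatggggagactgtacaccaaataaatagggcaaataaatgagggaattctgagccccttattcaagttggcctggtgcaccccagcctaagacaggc
Alb: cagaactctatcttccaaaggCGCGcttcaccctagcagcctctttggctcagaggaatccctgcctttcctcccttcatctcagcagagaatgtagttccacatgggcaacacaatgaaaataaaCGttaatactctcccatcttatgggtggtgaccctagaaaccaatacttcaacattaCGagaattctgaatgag
Cntnap2: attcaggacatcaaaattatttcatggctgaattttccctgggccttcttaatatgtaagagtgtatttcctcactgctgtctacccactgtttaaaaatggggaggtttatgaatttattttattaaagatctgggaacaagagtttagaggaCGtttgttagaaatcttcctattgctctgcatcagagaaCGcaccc

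At some marked ends the domain held a start of the same gene that is not the 5′ end in the gene table, shown here by 2 promoters. The RefSeq promoter table (GRCm38.p6) places a start of Rhov 2025 bases before the gene's 3′ end and one of Ap5b1 3238 bases before it, and both starts lay inside the strongest peak of their 3′ ends. The promoter of Rhov (chr2:119271177-119271476, minus strand) held 12 CpG and that of Ap5b1 (chr19:5567774-5568073, plus strand) 44, against a median of 7 over 32851 promoters of the table. Both are printed from 250 bases before the start to 50 after it, with CpG in capitals.
Rhov: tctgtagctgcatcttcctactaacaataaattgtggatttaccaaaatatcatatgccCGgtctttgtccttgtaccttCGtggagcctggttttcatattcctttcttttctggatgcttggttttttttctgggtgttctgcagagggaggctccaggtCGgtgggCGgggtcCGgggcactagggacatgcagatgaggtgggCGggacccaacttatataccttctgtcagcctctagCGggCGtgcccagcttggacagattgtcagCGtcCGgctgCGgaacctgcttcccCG
Ap5b1: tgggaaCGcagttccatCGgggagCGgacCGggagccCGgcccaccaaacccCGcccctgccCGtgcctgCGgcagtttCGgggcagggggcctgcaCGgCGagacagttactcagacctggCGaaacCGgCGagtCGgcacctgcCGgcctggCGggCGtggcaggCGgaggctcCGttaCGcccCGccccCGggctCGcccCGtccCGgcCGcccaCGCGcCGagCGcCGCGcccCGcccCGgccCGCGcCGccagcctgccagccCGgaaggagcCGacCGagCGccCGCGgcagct

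The data were lists of peaks, without read counts, so the depth of the libraries is unknown, and an unmarked end is one where no peak passed the authors' threshold. The replicated list held 62128 peaks, and the replicates' own lists 86781 and 83750. All 6 embryonic stem cell markers examined, among them Pou5f1, Sox2 and Nanog, had a peak at the 5′ end, with signals of 37.7 to 69.4. Of the marker starts of other cell types, 3 of 5 of fibroblasts, 4 of 4 of neurons, 1 of 3 of blood, 1 of 2 of trophectoderm and 2 of 2 of primitive endoderm had one. With 1 group, no difference between conditions could be tested. Shares below carry Wilson 95% intervals, which cover counting over genes only, and replicate values are given as the mean ± SD of the replicates' own lists.

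A peak was present at 1397 of the 11882 far 3′ ends, 11.8% (11.2 to 12.3%). Among all protein-coding 3′ ends the share was 20.4%, and among those within 5 kb of a 5′ end it was 32.4%. In replicate 1's own list 1621 far ends were marked, 13.6%, and in replicate 2's 1498, 12.6% (13.1% ± 0.732, SD, n = 2). The gap between far and near ends was thus many times the difference between the replicates. Both replicates' own lists marked 1258 of the 1861 ends that either marked, 67.6%. As background, positions every 10 kb along the chromosomes, likewise over 5 kb from every 5′ end, held a peak within 1 kb in 3.59% of 221541 cases. That share was 5.47% inside the genes of the far ends and 2.05% outside genes, both lower than at the far 3′ ends. Grid positions fall more often in longer genes, whereas each far end counts once. The share inside genes is therefore weighted by length and not directly comparable with that at the ends. Just inside and outside the distance rule, 190 of 969 ends lying 5 to 6 kb from a 5′ end were marked (19.6%), and 291 of 1246 lying 4 to 5 kb away (23.4%).

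The share of marked windows changed with the distance from the end. Positions before the end follow the gene's direction, and in genes shorter than the distance they lie upstream of the gene. At 20 kb before the end, 8.15% of windows that lay over 5 kb from every 5′ end held a peak, and at 10 kb before it 8.57%. The share reached 13.9% at 2 kb before the end, was 11.8% at the end, and was 8.61% at 1 kb beyond it and 8.02% at 10 kb beyond it. The end exceeded the mean of the 2 positions 10 kb away by 3.46 percentage points, with 4.07 in replicate 1 and 3.40 in replicate 2. The windows at each distance come from partly different genes. Over the 7297 members whose windows out to 6 kb on both sides all kept the distance, the shares were 11.7% at 2 kb before the end, 8.73% at it, 6.51% at 1 kb beyond and 8.14% at 6 kb beyond. Replicate 1 gave 13.1, 10.3 and 7.66% and replicate 2 12.3, 9.50 and 7.28% for the first 3 of these positions. At 6 kb before the end the share of this set was 8.40% in the replicated list. In this constant set, therefore, the end itself stood little above the positions 6 kb before and 6 kb beyond it. The highest share lay inside the gene.

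**Figure D1:**
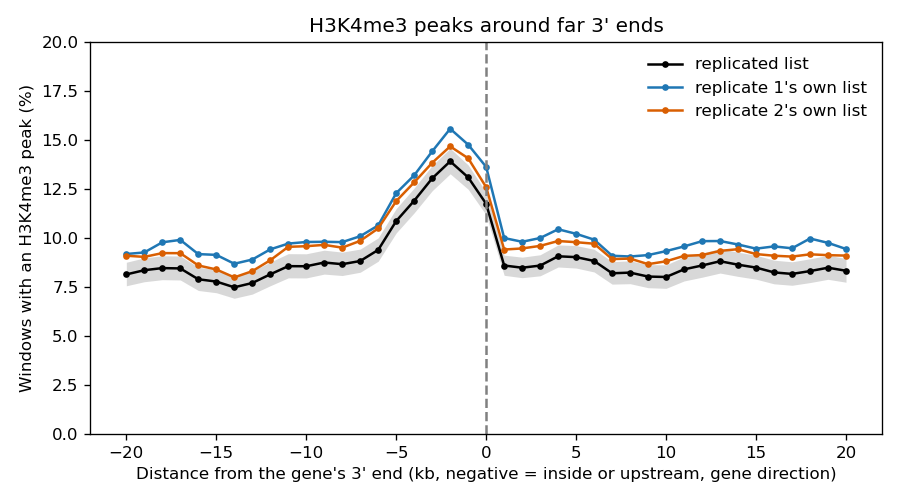
Percent of windows of 1 kb on either side of a position that hold an H3K4me3 peak, against the distance of the position from the 3′ end in kb, for the replicated list (black, grey band the Wilson 95% interval) and each replicate's own list. The highest value lies 2 kb before the end (13.9%), and the share is 8.61% at 1 kb beyond it.

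The peaks at far 3′ ends were weak and narrow beside those at the starts of the members. A peak's signal is the authors' ratio of ChIP over control for that peak, and an end's signal is the highest among its peaks. A peak counts where any part of it overlaps the 1 kb on either side of the end, even if its summit lies further away. Over the 1397 marked 3′ ends the median signal was 5.75 (quartiles 4.02 and 10.9), with medians of 4.75 and 4.66 in the replicates' own lists (4.71 ± 0.061, SD, n = 2). Over the 8770 marked own 5′ ends of all members the median was 43.1, and over the 1192 of genes whose 3′ end was also marked it was 39.1. A signal over 10 was reached at 27.6% of the marked 3′ ends and 91.4% of the marked 5′ ends, one over 20 at 9.66% and 80.8%, and one over 40 at 2.58% and 54.9%. Where both ends of a gene were marked, the 3′ end had the higher signal in 129 of 1192 genes, 10.8%, with 9.37% in replicate 1 and 11.0% in replicate 2. Where the gap between peaks was under 1 kb they were taken as 1 domain, whose median width was 1341 bp at 3′ ends, with 1136 and 1086.5 bp in the replicates' own lists. The median domain width was 2333 bp at the 8770 marked own 5′ ends and 2628.5 bp at the 1192 of genes with a marked 3′ end. The strongest summit lay inside the gene at 66.7% of marked ends, with 64.2 and 65.8% in the replicates, at a median of 524 bp before the end.

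**Figure D2:**
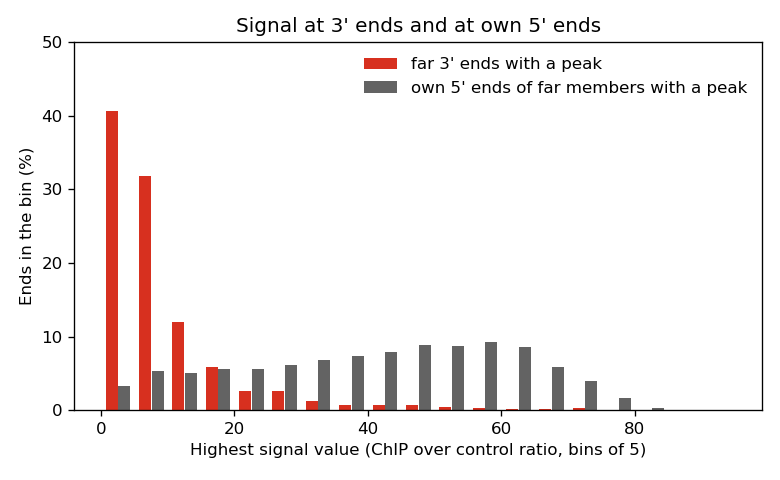
Percent of marked far 3′ ends (red) and of marked own 5′ ends of all members (grey) by highest signal, in bins of 5. Most 3′ ends lie in the lowest bins, and 27.6% exceed a signal of 10 against 91.4% of 5′ ends.

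Most of these domains were separate from the 5′ ends of the gene table. Of the 1397 marked ends, 1312 (93.9%) had a domain that touched no 5′ end of the gene table, 60 (4.29%) had one that reached the gene's own 5′ end, and 25 (1.79%) had one that reached another gene's. In the replicates' own lists 94.5 and 95.5% were separate. The far ends on the chromosomes covered by the promoter table, which lacks chromosome 18, were also held against its starts. A table start lay within 5 kb of 62 of 1370 marked ends (4.53%) and 133 of 10198 unmarked ends (1.30%). With the ends near such starts left out, and those on chromosome 18 kept, 11.4% of far ends were marked. The domain itself, which can reach further than 5 kb, held a table start at 108 of the 1370 marked ends (7.88%), 33 of them among the 1286 separate ones. At a signal over 20, 97 of 134 domains (72.4%) were separate and held no table start, against 93.5% at a lower signal.

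A marked 3′ end went more often with a marked start. The gene's own 5′ end was marked in 1192 of 1397 genes with a marked 3′ end, 85.3% (83.4 to 87.1%), and in 7578 of 10485 with an unmarked one, 72.3% (71.4 to 73.1%), beside 73.8% of all members and 68.5% of all protein-coding genes. The replicates gave 85.6 against 72.3% and 86.1 against 72.3%, so the difference was much larger than that between replicates. Seen from the start, 13.6% of the 8770 genes with a marked 5′ end had a marked 3′ end, against 6.59% of the 3112 others. The share with a separate domain at the 3′ end was 6.52% with no domain at the start. It was 11.3% with a start domain under 1 kb, 11.5% at 1 to 2 kb and 10.9% at 2 to 3 kb, with no increase over these classes, and then 14.3% at 3 to 5 kb and 18.5% above 5 kb. The signal at the start showed the opposite order. Its median was 39.1 in genes with a marked 3′ end and 43.8 in the others, with 37.0 against 38.9 in replicate 1 and 34.1 against 37.3 in replicate 2.

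Marked 3′ ends belonged to shorter genes in more crowded regions. The median gene length was 18975 bp for marked and 30541 bp for unmarked ends, with 18765 against 31014 bp in replicate 1 and 18988.5 against 30636.5 bp in replicate 2. Genes with a marked start had marked 3′ ends in 26.5% of cases when 5 to 7.5 kb long and in 6.41% when longer than 100 kb. Counting separate domains alone, these shares were 19.8 and 6.35%. They were then nearly level among shorter genes, with 19.7% at 7.5 to 10 kb and 18.8% at 10 to 20 kb. Genes with an unmarked start showed no such gradient, with 6.02% and 6.59%. Members with over 10 protein-coding 5′ ends within 100 kb were marked in 34.5% of 423 cases, and those with at most 2 in 7.02% of 4660. A 3′ end that faced the 3′ end of an opposite-strand gene within 2 kb was marked in 19.3% of 1832 cases, against 10.4% of the 10050 others. This order did not hold at low gene density, where the shares with at most 2 neighbouring starts were 4.62 and 7.21%.

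**Figure D3:**
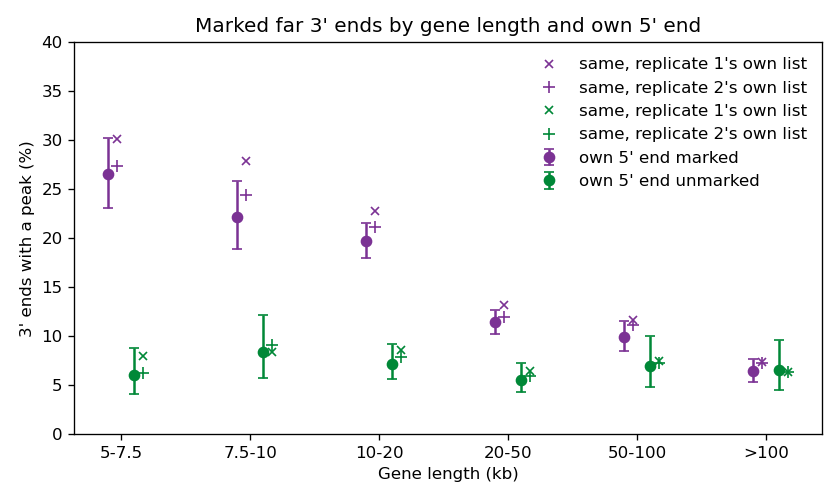
Percent of far 3′ ends with a peak by gene length in kb, for genes with a marked (purple) and an unmarked (green) own 5′ end; circles show the replicated list with Wilson 95% intervals, crosses and plus signs the replicates' own lists. The purple values go from 26.5 to 6.41%, and the green ones stay between 5.57 and 8.39%.

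The X chromosome held few marked far 3′ ends. Of 546 members on the X, 12 were marked, 2.20% (1.26 to 3.80%), against 12.2% of 11324 on autosomes, and the same 12 were marked in both replicates' own lists. The own 5′ ends of X members were marked in 52.6%, against 74.9% on autosomes. The median signal at these marked 5′ ends was 25.7 on the X (n = 287) and 44.0 on autosomes (n = 8480). At the marked 3′ ends it was 8.41 on the X and 5.75 on autosomes. Whether a lower signal on the X bears on its share of marked 3′ ends was not tested. Among the 12, Tmsb4x, which encodes the actin-binding thymosin beta 4, had a separate domain of signal 36.7 (31.8 and 32.6 in the replicates) against 6.47 at its own 5′ end. Elf4, an ETS factor, had 24.7 at its 3′ end and 18.0 at its start.

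Marked ends were much richer in G and C. Base composition was read from mm9, where 11785 members were matched to a vM1 gene and 10890 were over 5 kb from every vM1 gene's 5′ end. In the mm9 lists 14.7% of these were marked, with 12.3% in replicate 1 and 10.8% in replicate 2 (11.5% ± 1.03, SD, n = 2). Of the ends marked in mm10, 89.8% were marked in mm9, and of the ends unmarked in mm10, 5.19%. The GC content of the 2 kb around the end had a median of 51.1% at ends marked in mm10 and 43.0% at unmarked ones. By GC content, 1.36% of ends under 40% were marked in mm10, 4.56% at 40 to 45%, 12.0% at 45 to 50%, 30.0% at 50 to 55% and 60.9% (55.9 to 65.6%) over 55%. Both replicates followed the same order in their own mm9 lists, with 66.6 and 58.0% in the highest class.

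**Figure D4:**
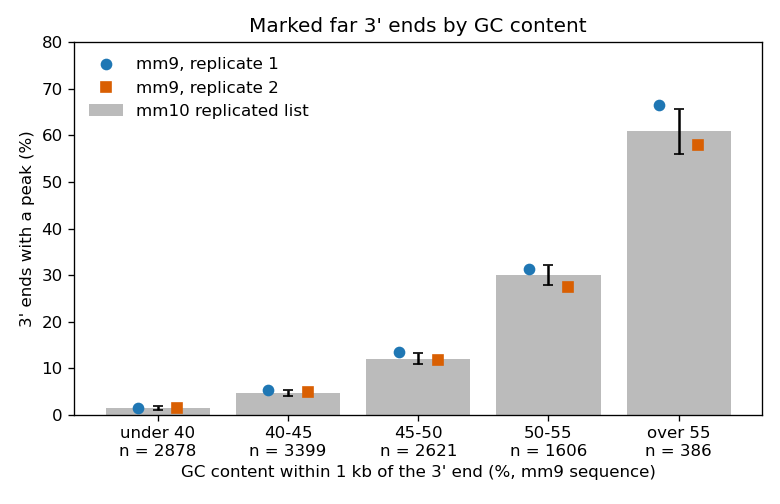
Percent of far 3′ ends with a peak by GC content of the surrounding 2 kb in mm9; bars show the mm10 replicated list with Wilson 95% intervals, points each replicate's own mm9 list. The share goes from 1.36% under 40% GC to 60.9% over 55% GC.

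Within classes of GC content, some of these differences kept their order and others did not. Ends with a marked own start were the more often marked in all 5 classes, with 30.8 against 25.9% at 50 to 55% GC and 1.90 against 0.305% under 40%. Shorter genes were too, with 33.8% for genes up to 20 kb and 26.5% for longer ones at 50 to 55%. Ends with over 5 neighbouring starts were the more often marked in 4 classes, with 36.1 against 25.9% at 50 to 55%, but not at 40 to 45%, with 3.98 against 4.65%. Convergent ends were the less often marked in the 3 lower classes, with 0.370 against 1.46% under 40%, 3.66 against 4.67% at 40 to 45% and 8.56 against 12.6% at 45 to 50%. At 40 to 45% both replicates gave the opposite order, with 6.81 against 5.20% and 5.50 against 5.07%. At 45 to 50% they gave 14.1 against 14.8% and 12.8 against 14.4%, smaller differences than in the replicated list. At 50 to 55% convergent and other ends had 30.1 and 29.9%, and over 55% they had 63.2 and 58.7%. On the X 1 of 248 ends was marked under 40% GC (0.0712 to 2.25%) against 1.45% on autosomes, 1 of 170 at 40 to 45% (0.104 to 3.26%) against 4.78% and 1 of 47 at 45 to 50% (0.377 to 11.1%) against 12.2%. At 50 to 55% it was 6 of 18 on the X against 29.9%. ChIP and sequencing recover DNA of different GC content unequally, and its part in these shares was not tested.

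Nearly every CpG-rich far 3′ end was marked. A window of 500 bp with over 55% GC and an observed-to-expected CpG ratio over 0.75 lay within 1 kb of 79 ends at 74 loci. In mm9 78 of the 79 were marked, 98.7% (93.2 to 99.8%), against 14.1% of the other 10811. Replicate 1 marked 78 and replicate 2 77. The exception in the pooled mm9 list was Lrrd1. Of the 59 with no vM1 transcript start within 5 kb, 58 were marked. In mm10 69 of the 79 were marked (87.3%) against 10.7% of the others. Of the 10 not marked in mm10, 7 differed in annotated gene length by over 1 kb between the builds, as did 17 of the 69 marked ones. The reverse did not hold, since only 5.63% of the ends marked in mm10 were CpG-rich. The median signal in mm10 was 17.1 at the 69 marked CpG-rich ends and 5.46 at the other 1156 marked ends. Of the 69 domains, 68 touched no 5′ end of the gene table. Some of these ends had a vM1 transcript start nearby, such as Polrmt at 645 bp and Hcn2 at 660 bp.

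Several of the CpG-rich marked ends belonged to developmental regulators, named here after their values were seen. Otp, a homeobox gene of the hypothalamus, had a 3′ end signal of 24.6 (22.0 and 9.33 in the replicates) and 8.34 at its own 5′ end. Isl2, a LIM homeobox gene of motor neurons, had 15.8 (15.7 and 9.84 in the replicates) and 4.89, in the one CpG-rich domain that reached its own start. Sim2, a bHLH-PAS factor, had 15.5 and 10.4. Nr2f2, an orphan nuclear receptor, had 9.78 and 4.17. Pitx1, a homeobox gene of the pituitary and limb, had 5.90 at its 3′ end and 5.03 at its start. The annotated lengths of Otp, Isl2 and Sim2 differed between the builds by 1435, 1482 and 219509 bp. Their CpG-rich window in mm9 and their peak in mm10 may therefore lie apart. For Nr2f2 and Pitx1 the lengths differed by 11 and 8 bp. Others were signalling genes, such as Smad6, an inhibitor of BMP signalling (17.0 at the 3′ end, 41.7 at the start), Wnt10a, a Wnt ligand (17.8 and 10.5), and Fgf8, a growth factor of the gastrula (8.84, with 5.27 in replicate 2, and 19.4). Shf and Duox1 shared 1 peak between their convergent ends, as did Ano8 and Dda1, and Grn and Fam171a2.

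The strongest separate domains, also picked after their values were seen, fell into those with and without a table start inside. Rpl19, a ribosomal protein of the large subunit, led with 74.9 (65.8 and 65.5 in the replicates), with table starts 3569 and 3783 bases before the end. Ap5b1, a subunit of the AP-5 adaptor, had 49.7 (43.8 in both replicates) against 15.4 at its 5′ end, and Sgk1, a serum- and glucocorticoid-induced kinase, 49.2 (46.2 and 39.1) against 15.2. Rhov, a small GTPase, had 45.4 (43.3 and 36.0) against 5.46. All 4 domains held a table start of the gene itself, and that of Erbb2, a receptor tyrosine kinase, held the start of its neighbour Mien1 (47.7, replicates 44.0 and 40.2). Btbd19, a BTB-domain gene, had 55.8 (49.4 and 48.5) against 27.5 at its start with no table start in the domain. Pomc, the precursor of corticotropin and melanocortins, had 47.7 (43.8 and 38.7) against 8.70, likewise with none. Bad, a BH3-only protein that promotes cell death, had 41.6 (34.6 and 36.0) against 59.7, with no table start in the domain. In mm9, however, a vM1 transcript start lay 1131 bp from the 3′ end of Bad. In each of these 8 genes both replicates lay below the value of the replicated list. Several of the summits lay over 1 kb from the 3′ end. Those of Rpl19, Ap5b1, Sgk1, Rhov and Btbd19 lay 3162, 3070, 4910, 1847 and 1717 bp before it.

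**Figure D5:**
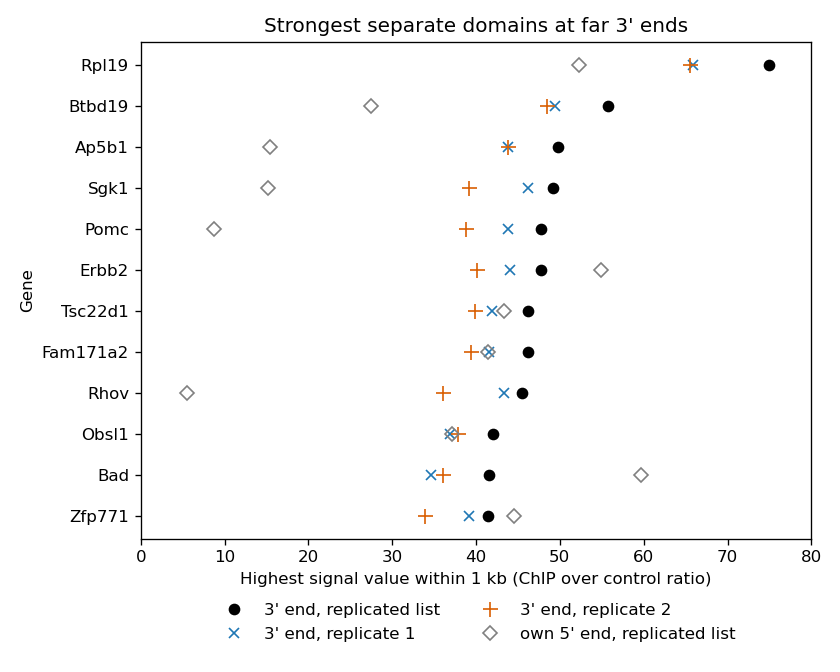
Signal (ratio of ChIP over control) of the strongest peak that overlaps the 1 kb on either side of the 3′ end. The 12 genes with the strongest separate domains are shown, in the replicated list (filled circles) and each replicate's own list (crosses, plus signs). Open diamonds give the signal at the own 5′ end. A summit can lie outside the window, as at Sgk1, Ap5b1 and Rhov, 4910, 3070 and 1847 bp before the 3′ end. Rhov, Pomc, Sgk1 and Ap5b1 have 3′ values of 45.4 to 49.7 and 5′ values of 5.46 to 15.4.

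Domains that reached from the gene's own start to within 1 kb of its 3′ end were found at short genes, some of them of the stem cell programme. In 13 genes 1 peak overlapped the 1 kb windows of both ends, so that the same peak can give the value at the 3′ end and at the start. Such a peak need not reach the 3′ end itself, and that of Klf4 stopped inside the gene. Mycn, a MYC-family factor, had such a peak with a signal of 69.7 (57.3 and 67.6) whose summit lay 5455 bp before the 3′ end, in a domain of 7.94 kb. Rps19 and Rps7, ribosomal proteins of the small subunit, had 74.2 (66.1 and 65.0) and 62.8 (55.5 and 53.9). For Hsp90aa1, a cytosolic chaperone, the replicated value was 73.0, with 67.5 in replicate 1 and 8.55 in replicate 2. For Klf4, a reprogramming factor, it was 55.1, with 7.10 and 6.74 in the replicates. The replicates' own peaks at these starts were as strong as elsewhere, with 49.2 and 49.0 for Klf4 and 60.9 in replicate 2 for Hsp90aa1, but separate from the peak at the end. Mcl1, which protects cells from apoptosis, had a domain of 20.2 kb in the replicated list and 12.4 kb in replicate 2, and Rbm14, an RNA-binding coactivator, one of 25.5 kb in the replicated list, 11.4 kb in replicate 1 and 21.2 kb in replicate 2. The domain of Rbm14 also held starts of Rbm4 and Gm21992, and that of Klf4 a start of Gm12506. Other domains that held starts of more than 1 gene were found at N4bp3, with 23.9 kb (11.0 kb in replicate 2), and C77080, with 20.2 kb. Dbp, a clock-controlled bZIP factor, had such a domain of 18.7 kb, and Arhgef40 one of 18.6 kb (5.17 kb in replicate 1). The domain of 17.0 kb at Zfp42, the stem cell marker Rex1, held the start of that gene alone, and the one of 18.1 kb at Mid1 held none. The end of Atad5, a DNA clamp unloader, lay in a domain that reached the start of its neighbour Tefm (55.8, replicates 49.2 and 47.8).

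The gene lists, chosen with results of these data known, differed in how many far ends were marked, beside the 11.8% of all far ends. Of pluripotency genes, 8 of 28 were marked, with a median signal of 17.5. For 5 of them, among which were Mycn, Klf4, Zfp42 and Nodal, the domain reached the own start. The separate ones were Tbx3, a T-box factor (16.8), Klf5 (8.05) and Nanog, the homeobox factor of the naive state, with 5.52 at its 3′ end (4.27 and 6.22) and 37.7 at its start. Dppa2 had a weak peak in replicate 1's list alone (2.97), and Dppa4 had none. Developmental transcription factors were marked in 8 of 35, all with separate domains and a median of 11.8. Sox17, a factor of endoderm, had a peak of 32.4 that reached within 1 kb of its 3′ end (33.5 and 23.1), and 9.49 at its start. The summit of that peak lay 2539 bp before the 3′ end, inside the gene. Tbx2, a T-box repressor, had 27.2 (21.8 and 12.2) and 22.3, with the 3′ summit 2588 bp beyond the end. Otx2, a homeobox gene of the anterior epiblast, had 17.8 and 11.4, with that summit 1251 bp beyond the end. Isl1 had 8.48 and 45.0, the reverse order.

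RNA processing genes were marked in 7 of 39 and signalling genes in 9 of 45. Among them Upf1, the helicase of nonsense-mediated decay, had a separate domain of 13.7 (13.0 and 10.9) beside 49.7 at its start, and this domain held a table start. Notch1, a receptor, had 21.6 with 5.63 and 5.12 in the replicates, so no replicate peak overlapping the 1 kb beside its end showed the level of the replicated list. The replicated value came from a peak of 4646 bp with its summit 2759 bp before the 3′ end. The replicates' domains there were 5980 and 5403 bp wide, and their peaks further inside the gene were not examined. The other marked signalling genes, Ski, Tsc2, Grb2, Ptpn11, Igf1r, Ctnnb1, Etv4 and Akt1, had 2.45 to 5.32 at the 3′ end and 30.8 to 67.0 at the start, and Igf1r had no 3′ peak in replicate 2's list. Neuronal genes were marked in 6 of 49, with Mbp, a myelin protein, highest (12.2, replicates 10.5 and 11.8). Chromatin genes were marked in 2 of 36, Setd2 with 4.50 and Ezh1 with 3.16, both histone methyltransferases. Of matrix genes of fibroblasts 2 of 24 were marked, Col1a1 with 4.17 and Thy1 with 3.74, and of blood and liver genes 1 of 21, Pck1, the gluconeogenic enzyme, with 5.03. None of 19 housekeeping genes was marked in the replicated list (0 to 16.8%), with 1 in replicate 1 and 2 in replicate 2, while 17 of the 19 had a marked start. With 19 to 49 members each, the intervals of these lists are wide. Those of 7 of the 9 lists include 11.8%, and those of pluripotency genes (15.3 to 47.1%) and developmental transcription factors (12.1 to 39.0%) lie above it. In replicate 2's list, however, the interval of the developmental factors, with 7 of 35 marked, was 10.04 to 35.9% and included the 12.6% of all far ends. Counting separate domains alone, 3 of 28 pluripotency genes were marked, 10.7% (3.71 to 27.2%), beside 11.0% of all far ends. Among the unmarked members first in alphabetical order were B2m, Cltc, Bcl11b, Ebf1, Ash2l, Cpsf2, Cpsf4, Acvr1b, Acvr2a, Ank2, Ank3, Acta2, Col1a2, Adgre1 and Alb. None of those named had a peak at the 3′ end in either replicate's list. All but Acta2, Adgre1 and Alb had a marked start, with signals from 3.88 at Ank3 to 89.8 at Cltc, the clathrin heavy chain.

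Some marked 3′ ends belonged to genes whose own start was unmarked, 205 in all. The strongest was Eps8l1, an adaptor of actin signalling, with 40.8 (36.1 and 34.7) and its summit 2258 bp before the 3′ end. Next were Efcab15 with 39.7 (35.2 and 35.0) and Krt10, a keratin of the epidermis, with 32.8 (23.9 and 29.8). Ntng2, a netrin-related axon guidance protein, had 31.9 (28.4 and 28.0), Dennd4a 29.2 (20.5 and 28.5) and agouti, the pigment-switching gene with the symbol a, 29.2 (25.7 and 26.1). In these 6 genes the domains were 2.02 to 3.21 kb wide, held no start of either table, and were found in both replicates. The ends of Eps8l1 and Efcab15 lay 1032 and 41 bp from the opposite-strand ends of Ppp1r12c and Fmnl1.

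Very long genes were found among both marked and unmarked ends. The longest marked genes were Magi2, a synaptic scaffold of 1485 kb, with 5.03 (4.89 and 4.66), Alk, a receptor tyrosine kinase of 735.7 kb, with 17.1 (16.4 and 16.6), and Hpse2, of 601.9 kb, with 3.45. Rbfox3, a neuronal splicing factor of 421.8 kb, had 10.8 (9.54 and 9.84) at its 3′ end with no peak at its own start. The longest unmarked genes were Dmd, which encodes dystrophin, the receptor phosphatase gene Ptprd and the adhesion gene Cntnap2. Among the last 3, Ptprd and Cntnap2 had marked starts, with signals of 13.4 and 9.49.

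Transcript starts inside genes, which the gene table does not list, were examined in mm9. In vM1, a transcript start of any biotype lay within 1 kb of 2.75% of ends marked in mm9 and 1.13% of unmarked ends, and within 5 kb of 27.9 and 13.7%. The replicates gave 2.62 and 2.55% against 1.19 and 1.23% within 1 kb. Of the 9166 ends over 5 kb from every such start, 12.6% were marked, with 10.5 and 9.26% in the replicates.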

How the data were processed

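H3K4me3 ChIP-seq was analysed from 7 deposited peak lists of 2 replicates of E14TG2a.4 cells. Per the deposited file descriptions, the authors made 4 narrowPeak lists on mm10, 1 per replicate, 1 pooled and 1 replicated list drawn from these, and 3 broadPeak lists on mm9. The peak caller and the aligner were not given in the sources used here. Each deposited mm10 peak has a signal, the ratio of ChIP over control, and its p-value and q-value as −log10. Each deposited mm9 peak has a ratio whose denominator is not stated, and the p-value and q-value themselves. No list holds read counts, so the depth per replicate is unknown.

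Gene ends came from the GRCm38.p6 gene table, with strand from GENCODE vM1 by name for 18392 protein-coding genes and by synonym for 2184. For 21969 genes of any biotype with no strand, both ends counted as possible 5′ ends. The strand of 53 genes went against the mm10 promoter table, 20 of them on chromosome 10, and 49 protein-coding genes were left out. No coordinate was converted between builds: base composition, transcript starts and exons were read from mm9 (NCBIM37) at the vM1 gene of the same name. Shares in mm9 used mm9 lists, and where ends marked in mm10 are set against base composition, the call of a gene's end in mm10 was joined by name to the mm9 sequence at that gene's end, which may differ in position. Peaks up to 1 kb apart were joined into domains. Overlaps were counted with Python 3.11.15, numpy 2.4.6 and pandas 2.3.3, and the functions were tested on simulated data. No test between groups was possible, and values are described by counts, medians, Wilson 95% intervals and the replicates. Where a share rests on genes of the promoter table, chromosome 18 was left out. The exception is the share of marked far ends with those near a table start removed, which kept it.

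The members and the 9 gene lists were chosen with earlier results of these data known. Genes were named by rule: the 10 strongest and 8 widest marked ends, 1 per locus, the 6 strongest with an unmarked own start, per list the 2 strongest marked and the first 2 unmarked in alphabetical order, and the 3 longest marked and unmarked. The strongest separate domains, the CpG-rich ends and the X genes were named after their values were seen. Some genes that these rules select are not reported here. Alternatives were the single-replicate and pooled lists, peaks of q under 1e-05, narrower and wider windows of 500 bp or 2 kb, distances of 3 and 10 kb, strandless genes left out and 1 end per locus.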

Additional observations from a re-analysis of the deposited data

How the results depend on the processing

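The shares, differences and medians were recomputed from each replicate's own list (without the other replicate) and under other windows, distances, thresholds and member sets. No paired analysis was possible because the series has 1 group. The 3 alternatives on table starts, strand as given and separate domains were chosen after seeing the data. The 4 differences kept their sign and the ratio of gene lengths stayed below 1, while the other results have no direction. Of 102 recomputed values, 41 moved by less than 1 SD of the replicates, and the cause of the other 61 moves was not tested. The share of far 3′ ends with a peak was 11.8% and 12.6 to 13.6 in single replicates, 15.9% with the pooled list, 10.8% with q under 1e-05, 8.17% in 500 bp, 17.6% in 2 kb, 14.1% past 3 kb, 9.15% past 10 kb, 12.5% without strandless genes and 12.6% in mm9 far from every transcript start. The excess of the end over the positions 10 kb away was 3.46 points and 3.4 to 4.07 in single replicates, 4.42 with the pooled list, 2.23 in 500 bp, 5.16 in 2 kb, 2.15 past 10 kb and 2.87 with separate domains alone. The difference in marked own 5′ ends was 13.1 points and 13.3 to 13.8 in single replicates, 14.7 with the pooled list, 12.2 with q under 1e-05, 12.2 in 500 bp, 15.8 in 2 kb, 15.3 past 3 kb, 10.6 past 10 kb, 14.1 with 1 end per locus, 12.6 with the strand as given and 12.3 with separate domains alone. The ratio of median gene lengths was 0.621 and 0.605 to 0.62 in single replicates, 0.604 with q under 1e-05, 0.607 in 500 bp, 0.552 past 3 kb, 0.739 past 10 kb and 0.645 with separate domains alone. The median signal was 5.75 and 4.66 to 4.75 in single replicates, 4.35 with the pooled list, 6.18 with q under 1e-05, 5.9 in 500 bp, 6.47 past 3 kb, 5.46 past 10 kb, 5.9 without strandless genes and 5.61 with separate domains alone. The median domain width was 1341 bp and 1086.5 to 1136 in single replicates, 1549 in 500 bp, 1217 in 2 kb, 1595 past 3 kb, 1154 past 10 kb, 1273 with 1 end per locus and 1229.5 with separate domains alone. The share of summits inside the gene was 66.7% and 64.2 to 65.8 in single replicates, 64.6% with the pooled list and 68.2% with 1 end per locus. The mm9 difference in transcript starts within 1 kb was 1.62 points and 1.32 to 1.43 in single replicates, 1.51 in 500 bp, 1.15 in 2 kb and 1.5 with 1 end per locus. The mm9 difference in CpG-rich windows was 4.86 points and 5.83 to 6.52 in single replicates, 2.55 in 500 bp and 7.74 in 2 kb. Depth limits every share, since the lists hold no read counts and an end below the authors' threshold counts as unmarked. The replicates' own lists are longer than the replicated list and were thresholded separately.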
